A study of Mus musculus with 5 samples.

Results

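A set of genes of the type I interferon response, *Isg15*, *Uba7*, *Ube2l6*, *Herc6*, *Usp18*, *Rsad2*, *Bst2*, *Xaf1*, *Rtp4* and *Ifi44*, were followed in group 2 innate lymphoid cells (ILC2s) of the mouse lung. It held 10 of the 27726 genes common to 5 single-cell RNA libraries, and it was picked by name with values of these data known, in particular that *Ube2l6* and *Xaf1* were higher after culture. The difference between cultured and fresh cells is therefore given as a description, with no test. Levels are unique molecular identifiers (UMIs) of a gene per 1000000 UMIs of a library (CPM), over the barcodes that had 200 or more genes and a mitochondrial share below 5%.

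ILC2s were sorted from lungs of female wild-type C57BL/6 mice aged 4 to 8 weeks as lineage-negative, ST2+, CD127+, Thy1.2+ and CD45+ cells, with 5 mice pooled in each library. Naïve ILC2s (1 library) came from mice without a tumour. Tumour-associated (ta) ILC2s came from mice that had received TC1 tumour cells under the skin of the right flank, 2 or 3 weeks before. The ta-non-activated cells (weeks 2 and 3, 1 library each) were fresh, and the ta-activated cells (weeks 2 and 3, 1 library each) spent a week in culture with rhIL-2, IL-33 and TSLP. Culture, its duration and the cytokines cannot be told apart in this design, and a pool of mice counts as 1 sample. The sources used here do not say whether the fresh and cultured cells of a week came from the same mice.

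After filtering, 16530 cells were used, which were 6389 naïve cells, 1823 and 1601 ta-non-activated cells (week 2, then week 3) and 2895 and 3822 ta-activated cells. The libraries held from 9394957 to 61830293 UMIs, with medians of 4396 to 16090 UMIs per cell. All 10 ILC2 markers looked up, *Gata3* and *Il1rl1* among them, were detected in each library, with summed levels of 1593 CPM in the fresh library of week 3 and 8016 to 11566 CPM in the other 4. That library stood apart, since 850 of its 1601 cells (53.1%) had at least 2 UMIs of *Cd3d* and *Cd3e*, T cell receptor components, against 1.10 to 7.45% in the others. Its 9 T cell markers summed to 5880 CPM, against 289 to 1146 CPM elsewhere, and *Cd4* was at 0 in the naïve and *Cd4* and *Cd8a* in the fresh library of week 2. The naïve matrix came from Cell Ranger 6.0.0 and the other 4 from 3.0.2. Across 12313 genes the ratio of naïve to week 2 ta-non-activated levels had a Spearman correlation of 0.448 with intron length, and the part of this in the naïve values below was not tested. Any pair of libraries shared 1 to 8 cell barcodes.

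ISG15 is a small ubiquitin-like protein that cells make after interferon signalling and attach to other proteins. UBA7 activates it, UBE2L6 carries it, HERC6 is the main ligase that attaches it in mice, and USP18 removes it and also restrains the type I interferon receptor. The other 5 genes encode proteins that interfere with viral replication, release or cell survival. Their promoters commonly hold interferon-stimulated response elements, short sequences through which interferon raises transcription.

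The promoters are shown because all 10 genes were higher after culture. Windows from RefSeq on GRCm38.p6 (250 bases before to 50 after a start) were matched for 8 of the 10 genes, without *Usp18* and *Rtp4*. A short form of the interferon-stimulated response element, 2 copies of GAAA with 2 bases of any kind between them on either strand, was found in 3 of 8 windows, in 17 of 23 genes (73.9%) of a list of other interferon-induced genes and in 3.99% of all 27025 genes in the table. These 3 genes were *Isg15* (3 overlapping matches, starting 78, 72 and 66 bases before the start), *Bst2* (130 and 124 bases) and *Rsad2* (120 bases). The 150 bases before each start follow, 5′ to 3′ on the gene's own strand, with the matches in capitals.
Isg15, chr4:156200819-156200968, minus strand: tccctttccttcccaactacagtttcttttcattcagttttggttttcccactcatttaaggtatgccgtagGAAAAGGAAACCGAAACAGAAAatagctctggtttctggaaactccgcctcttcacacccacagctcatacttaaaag
Bst2, chr8:71537473-71537622, minus strand: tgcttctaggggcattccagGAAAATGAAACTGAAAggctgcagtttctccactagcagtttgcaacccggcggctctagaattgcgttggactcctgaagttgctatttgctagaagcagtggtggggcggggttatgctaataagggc
Rsad2, chr12:26456453-26456602, minus strand: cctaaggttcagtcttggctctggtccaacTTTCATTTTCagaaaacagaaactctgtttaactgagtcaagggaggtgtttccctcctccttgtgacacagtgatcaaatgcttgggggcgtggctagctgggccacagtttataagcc

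A shorter form, TTTCNNTTT on either strand, was chosen after these windows had been seen and overlaps each match above. It was present in 6 of 8 windows and in 12.1% of all genes, and it added *Uba7*, *Xaf1* and *Ifi44*. Its matches started 27, 17 and 55 bases before the start of these 3 genes and are in capitals here.
Uba7, chr9:107975417-107975566, plus strand: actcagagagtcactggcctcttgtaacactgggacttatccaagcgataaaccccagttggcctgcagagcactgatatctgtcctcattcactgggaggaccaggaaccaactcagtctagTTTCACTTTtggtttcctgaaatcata
Xaf1, chr11:72301479-72301628, plus strand: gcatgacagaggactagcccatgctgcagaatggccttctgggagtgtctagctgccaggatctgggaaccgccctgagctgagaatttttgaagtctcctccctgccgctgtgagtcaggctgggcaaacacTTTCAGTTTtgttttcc
Ifi44, chr3:151749911-151750060, minus strand: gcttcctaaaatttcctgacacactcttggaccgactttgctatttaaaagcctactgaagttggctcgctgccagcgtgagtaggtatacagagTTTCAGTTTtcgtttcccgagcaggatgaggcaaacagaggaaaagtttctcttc

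Neither motif was found in the windows of *Ube2l6* and *Herc6*. The motif TTCNNNGAA, a short form of the gamma-activated site, was present in the *Bst2* window and in none of the other 7, against 9.55% of all genes. These matches describe letters in a window of 300 bases and are not measured binding sites.

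Each of the 10 genes was higher in both ta-activated libraries than in all 3 fresh libraries. Of 12073 genes with at least 20 UMIs over the libraries of each week, 19.0% had that order. Higher levels after culture in both weeks were found for 10 of 10 genes, against a background of 38.7% of genes, and levels over 4-fold higher in both weeks for 9 of 10, against 4.41%. None of the 10 was lower in both weeks, which 25.8% of the genes were. *Bst2* was the gene below 4-fold. The median log2 ratio of the 10 genes was 4.22 in week 2 and 3.03 in week 3, beside 0.21 and 0.09 over all 12073 genes. Since the set was picked on this difference, nothing further is read from these counts. With the 2 ta-activated against the 2 ta-non-activated libraries, edgeR's quasi-likelihood test placed none of 12643 genes (0%) past an adjusted p of 0.05. In that test 2120 genes had an unadjusted p under 0.05, of which 1178 were higher after culture (9.32% of the 12643 genes). DESeq2 on the same counts placed 1037 past the threshold. In counts simulated with the estimated spread, the edgeR test recovered 0 of 193 genes changed 4-fold and 179 of 192 changed 16-fold. The simulation gave all genes 1 common spread. In the fit to the data, 182 genes had a larger log2 ratio than *Rsad2* (4.45), and none passed the threshold. The edgeR count of 0 therefore cannot exclude differences of 4-fold or of 16-fold.

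**Figure D1:**
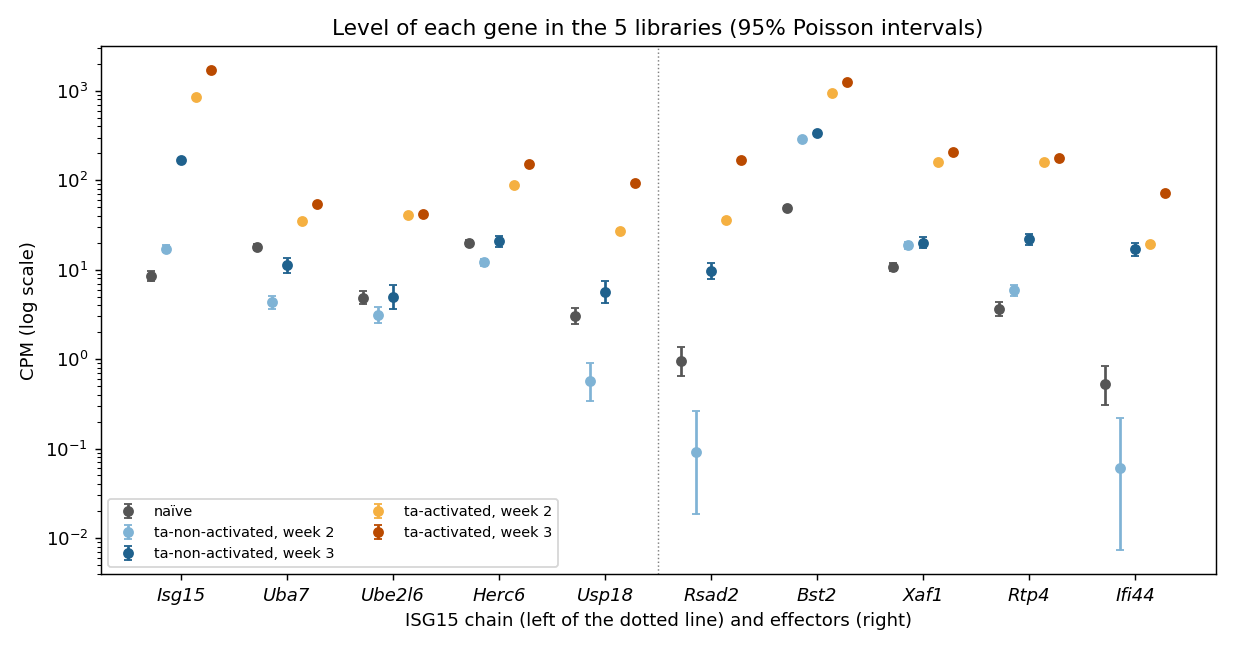
Levels of the 10 genes in the 5 libraries, in CPM on a log scale, with the ISG15 chain left of the dotted line and the effectors right of it. Points are libraries and bars are exact 95% Poisson intervals, which cover counting error only. For each gene both ta-activated points lie above the 3 fresh ones, with the smallest gap for *Ifi44* (19.4 against 16.8 CPM).

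*Isg15* (chromosome 4, 156199424 to 156200818, GRCm38) encodes the modifier itself. Its level was 8.52 CPM in naïve ILC2s, 17.2 and 166 CPM in the ta-non-activated libraries of weeks 2 and 3, and 862 and 1701 CPM in the ta-activated libraries. The means were 91.7 ± 105 CPM (SD, n = 2) in ta-non-activated and 1281 ± 593 CPM (SD, n = 2) in ta-activated cells. The fresh libraries did not overlap with the cultured ones and the fresh week 3 library was 9.68-fold (95% counting interval 8.79 to 10.7) above that of week 2. Within a week the ratio of cultured to fresh was 50.2 (46.2 to 54.6) in week 2 and 10.2 (9.73 to 10.8) in week 3. Without the cells with at least 2 *Cd3d* and *Cd3e* UMIs (hereafter CD3 cells), the fresh libraries were 2.69-fold (2.17 to 3.30) apart and the week 3 ratio was 36.7 (30.4 to 44.7).

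*Uba7* (chromosome 9, 107975505 to 107984060) encodes the activating enzyme of the chain. It stood at 17.9 CPM in naïve cells, 4.30 and 11.2 CPM in ta-non-activated and 35.0 and 53.7 CPM in ta-activated cells of weeks 2 and 3. This was the 1 gene of the 10 for which the naïve library was above both ta-non-activated libraries, an order that 43.3% of the 12073 genes had. The cultured levels were 8.12-fold (6.85 to 9.69) and 4.80-fold (3.95 to 5.89) above the fresh ones. The gene shares 233 exon bases with *Gm20661* on the same strand, and the 2 cannot be fully separated by counting. *Gm20661* itself had 1.14 CPM in the naïve library and at most 0.105 CPM in the other 4.

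*Ube2l6* (chromosome 2, 84798828 to 84810335) encodes the conjugating enzyme. Naïve cells had 4.88 CPM, ta-non-activated cells 3.13 and 5.003 CPM, and ta-activated cells 40.7 and 41.4 CPM. The fresh libraries were all at or below 5.003 CPM, and the means were 4.07 ± 1.32 CPM (SD, n = 2) and 41.1 ± 0.477 CPM (SD, n = 2). Culture and fresh differed 13.01-fold (10.7 to 15.99) in week 2 and 8.27-fold (6.20 to 11.3) in week 3, or 5.12-fold (3.27 to 8.52) in week 3 without CD3 cells. *Ube2l6* was the gene whose cultured libraries lay closest, with a week 3 to week 2 ratio of 1.02 (0.961 to 1.08), and it was the only one of the 10 whose ratio between these libraries had an interval that included 1.

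*Herc6* (chromosome 6, 57581000 to 57664632) encodes the ligase. Its level was 19.7 CPM in naïve, 12.1 and 20.6 CPM in ta-non-activated and 88.9 and 152 CPM in ta-activated cells. The naïve and the week 3 ta-non-activated library did not differ beyond counting error (ratio 1.05, 0.888 to 1.23). Cultured cells were above fresh cells by 7.37-fold (6.66 to 8.18) in week 2 and 7.36-fold (6.38 to 8.53) in week 3, with both levels higher in week 3. The gene shares 1269 exon bases with *Gm45193* on the same strand, which is not in the common matrices, so reads there cannot be told apart.

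*Usp18* (chromosome 6, 121245906 to 121270917) encodes the protease that takes ISG15 off its targets. Levels were 3.03 CPM in naïve, 0.572 and 5.64 CPM in ta-non-activated and 27.2 and 92.2 CPM in ta-activated cells. The ta-activated libraries differed 3.39-fold (3.20 to 3.58) from each other, with week 3 higher. Cultured cells were 47.6-fold (30.4 to 79.3) above fresh cells in week 2, where the fresh library had 19 UMIs, and 16.3-fold (12.5 to 21.8) in week 3. Without CD3 cells the week 3 ratio was 43.1 (18.5 to 133), on 5 fresh UMIs. An antisense gene, *Gm44148*, overlaps 124 of its exon bases, and the sources used here do not state how the counting treated strand.

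Among the effectors, *Bst2* (chromosome 8, 71534255 to 71537456) encodes tetherin, which holds budding virus particles on the cell surface. It was at 49.0 CPM in naïve, 290.0 and 341 CPM in ta-non-activated and 954 and 1241 CPM in ta-activated cells. Both ta-non-activated libraries were above the naïve one, 5.92-fold (5.61 to 6.24) in week 2 and 6.96-fold (6.55 to 7.40) in week 3, an order shared by 32.7% of the 12073 genes. Without CD3 cells the week 3 library had 121 CPM, 2.48-fold (2.18 to 2.82) above naïve, and the week 2 library had 291 CPM. The ratio of cultured to fresh was 3.29 (3.22 to 3.36) in week 2 and 3.64 (3.51 to 3.77) in week 3, or 10.3 (9.13 to 11.6) in week 3 without CD3 cells. *Bst2* also marks plasmacytoid dendritic cells. Of 6 other markers of that type, *Siglech* and *Klk1* were at 0 in 4 libraries and *Klk1* in the fifth, and the 6 summed to 13.5 to 119.5 CPM in the fresh and 28.8 to 38.3 CPM in the cultured libraries.

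*Xaf1* (chromosome 11, 72301629 to 72313733) encodes a binding partner of the apoptosis inhibitor XIAP. Its levels were 10.8 CPM in naïve, 18.7 and 20.1 CPM in ta-non-activated and 159 and 207 CPM in ta-activated cells. The ta-non-activated libraries did not differ beyond counting error (week 3 over week 2 1.08, 0.911 to 1.27), with a mean of 19.4 ± 1.03 CPM (SD, n = 2), and the ta-activated mean was 183 ± 34.0 CPM (SD, n = 2). Cultured cells were 8.52-fold (7.85 to 9.25) above fresh cells in week 2 and 10.3-fold (8.92 to 11.9) in week 3, or 12.5-fold (9.15 to 17.6) without CD3 cells. *Xiap* itself was at 78.0 CPM in naïve, 25.9 and 28.8 CPM in ta-non-activated and 46.7 and 63.9 CPM in ta-activated cells.

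*Rtp4* (chromosome 16, 23520291 to 23614222) encodes a receptor transporter protein that limits replication of some RNA viruses. It had 3.67 CPM in naïve, 5.90 and 21.9 CPM in ta-non-activated and 158 and 178 CPM in ta-activated cells. The fresh library of week 3 was the highest of the fresh ones, but without CD3 cells those of weeks 2 and 3 were at 5.80 and 5.97 CPM, 1.03-fold (0.552 to 1.77) apart. The cultured ones were at a ratio of 1.12 (1.09 to 1.15). Cultured cells were 26.9-fold (23.3 to 31.1) and 8.10-fold (7.05 to 9.34) above fresh cells in weeks 2 and 3, and 29.8-fold (17.8 to 54.6) in week 3 without CD3 cells. The gene shares 296 exon bases with *Gm45338* on the same strand, also outside the common matrices.

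*Rsad2* (chromosome 12, 26442746 to 26456452) encodes viperin, an enzyme that makes a nucleotide analogue that blocks viral RNA synthesis. Its level was 0.957 CPM in naïve, 0.0903 and 9.69 CPM in ta-non-activated and 35.8 and 168 CPM in ta-activated cells. The week 2 fresh library had 3 UMIs of *Rsad2*, so the week 2 ratio of 397 had a counting interval from 136 to 1925. In week 3 the ratio was 17.4 (14.1 to 21.6), or 98.9 (38.6 to 363) on 4 fresh UMIs without CD3 cells. The cultured library of week 3 was 4.70-fold (4.48 to 4.93) above that of week 2, the widest gap between these libraries in the set.

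*Ifi44* (chromosome 3, 151730922 to 151749960) encodes an interferon-induced protein with antiviral activity. It had 0.525 CPM in naïve, 0.0602 and 16.8 CPM in ta-non-activated and 19.4 and 72.5 CPM in ta-activated cells. The fresh week 3 library came within counting error of the cultured week 2 library, since their Poisson intervals overlapped. The week 2 fresh library had 2 UMIs, and the week 2 ratio of 322 had an interval from 88.8 to 2659. In week 3 the ratio was 4.31 (3.68 to 5.08), or 34.3 (14.7 to 106) on 5 fresh UMIs without CD3 cells. Its relative *Ifi44l* had no UMI in any library.

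**Figure D2:**
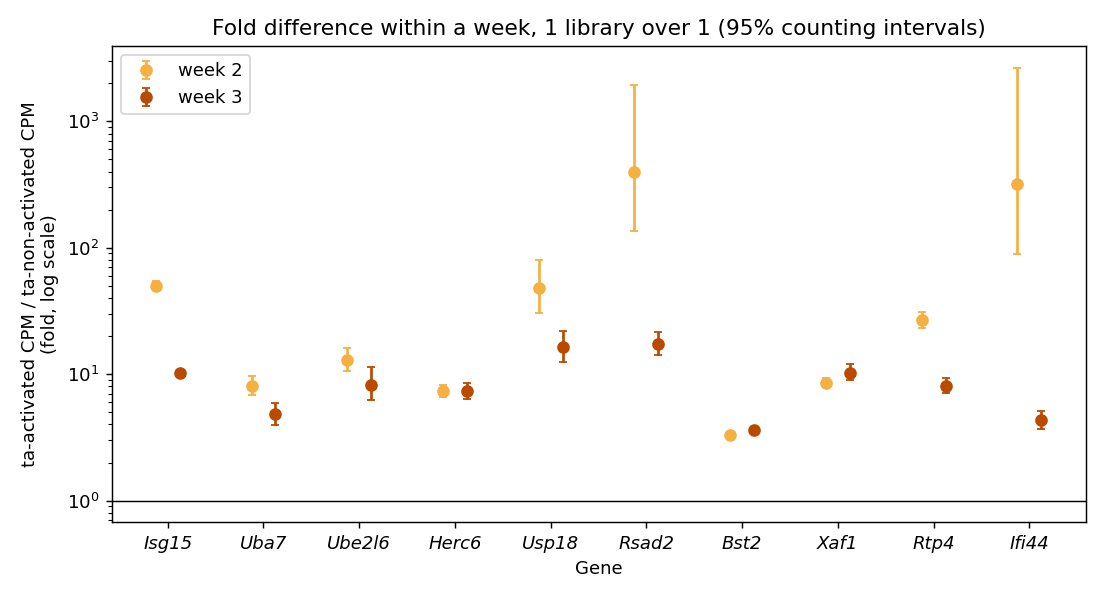
Ratio of the ta-activated to the ta-non-activated level (CPM over CPM, log scale) of each gene in week 2 and week 3, with 95% counting intervals. All 20 points lie above 1, and those of *Rsad2* and *Ifi44* in week 2 have wide intervals because the fresh library held 3 and 2 UMIs.

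Across the set, the ta-activated library of week 3 was above that of week 2 for all 10 genes, an order that 57.4% of the 12073 genes had. The ratio ran from 1.02 for *Ube2l6* through 1.30 for *Bst2* and *Xaf1* to 1.97 for *Isg15* and 4.70 for *Rsad2*. With 1 library per week, a difference between weeks has no replicate check. The 4 dividing-cell markers, *Mki67* and *Top2a* among them, summed to 46.0 to 459 CPM in the fresh and 698 to 756 CPM in the cultured libraries, and their part in the levels was not tested.

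The fresh week 3 library was then split by CD3 transcripts. The 850 CD3 cells had 206 (196 to 217) CPM of *Isg15*, and the 751 others had 46.5 (38.2 to 56.1) CPM. *Bst2* was at 414 and 121 CPM, *Rtp4* at 27.2 and 5.97 CPM, *Rsad2* at 12.3 and 1.71 CPM, and *Ifi44* at 21.7 and 2.13 CPM in the same order. For these genes the intervals did not overlap between the cell groups, with the CD3 cells higher. The share of all genes with such a gap is not given here, so the gaps are not read as a trait of the set. The cell groups also differed in *Cd3d* (901 and 10.7 CPM) and *Il1rl1* (1.84 and 327 CPM). *Uba7* (10.5 and 13.2 CPM), *Herc6* (19.999 and 22.6 CPM) and *Xaf1* (21.3 and 16.6 CPM) had overlapping intervals. *Usp18* was at 6.81 (5.02 to 9.03) CPM in the CD3 cells and 2.13 (0.692 to 4.98) CPM in the others, on 48 and 5 UMIs, with intervals that were just apart. *Ube2l6* had 3.97 and 8.10 CPM on 28 and 19 UMIs, with overlapping intervals. In the ta-activated libraries, 106 and 50 cells were CD3 cells, and *Isg15* was lower in them (644 and 1350 CPM) than in the others (874 and 1707 CPM).

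**Figure D3:**
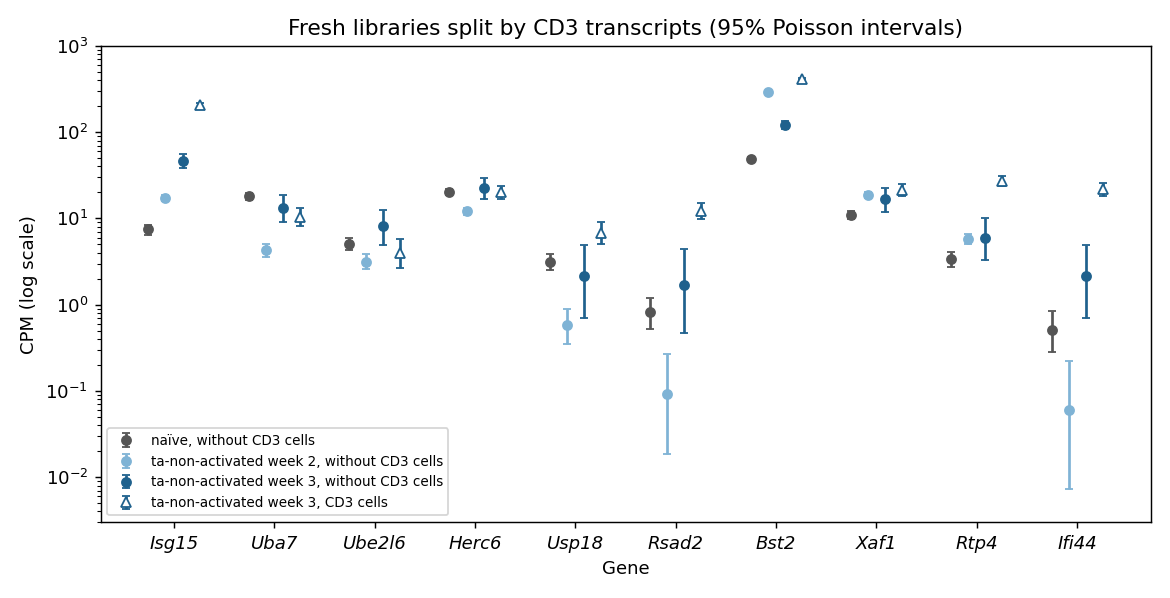
Levels in the fresh libraries without CD3 cells (filled circles) and in the CD3 cells of the week 3 ta-non-activated library (open triangles), in CPM on a log scale with 95% Poisson intervals. The triangles stand above the week 3 circles by more than the intervals for *Isg15*, *Usp18* (narrowly), *Rsad2*, *Bst2*, *Rtp4* and *Ifi44*.

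Detection per cell was compared after drawing 2000 UMIs from each cell with at least that many, which left out 242 naïve, 14 and 106 ta-non-activated and 73 and 108 ta-activated cells. *Isg15* then had a UMI in 1.497% of naïve cells, 3.37 and 17.9% of ta-non-activated and 67.0 and 83.7% of ta-activated cells (weeks 2 and 3). Without CD3 cells, which were 53.1% of the fresh library of week 3, the *Isg15* share there was 5.71% (37 of 648 cells, 4.05 to 7.78). *Bst2* was detected in 8.49%, in 40.5 and 39.1%, and in 83.3 and 88.6% of these cells, and without CD3 cells the ta-non-activated shares were 40.6 and 17.9% (15.02 to 21.1 in week 3). *Ube2l6*, with few UMIs, was detected in 1.12%, in 0.995 and 0.803%, and in 9.67 and 8.72%. *Xaf1* reached 33.7 and 36.1% of the ta-activated cells from at most 4.41% in a fresh library, and *Rtp4* 33.2 and 32.8% from at most 2.81%. *Usp18* had 0 of 1809 cells in the week 2 ta-non-activated library, which allows a share of up to 0.166% at 2000 UMIs, and before the draw 17 of 1823 cells (0.933%) had a UMI. *Gata3*, the lineage factor of ILC2s, was found in 68.1% of naïve, 51.0 and 32.0% of ta-non-activated and 66.4 and 81.4% of ta-activated cells, and in 56.5% of the fresh week 3 cells without CD3 cells. Before the draw, medians were 4604 to 16132 UMIs per cell. As a measure of free RNA, *Sftpc*, a surfactant gene of lung epithelium that ILC2s should lack, had a UMI in 1.58% of naïve cells. It had one in 0.0553 and 0.535% of ta-non-activated and 0 of 2822 and 0 of 3714 ta-activated cells. The 4 epithelial markers looked up, *Sftpc* among them, summed to 290 CPM in naïve and 20.9 and 80.6 CPM in ta-non-activated cells. In ta-activated cells they summed to 21.4 and 2.04 CPM, so the *Sftpc* zeros there do not stand for all epithelial transcripts. The naïve shares of *Isg15* (1.21 to 1.83%) and *Ube2l6* (0.874 to 1.42%) were below that of *Sftpc* (1.28 to 1.92%), though both intervals overlapped that of *Sftpc*. Those of *Usp18* (0.651%), *Rtp4* (0.602%), *Rsad2* (0.228%) and *Ifi44* (0.0651%) were lower still. The *Sftpc* share sets no background level for another gene. The part of free RNA in these low naïve shares was not tested.

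At this depth, 4 or more of the 10 genes had a UMI in 0.0325% of naïve cells (2 of 6147) and 0.276 and 1.40% of ta-non-activated cells. In ta-activated cells the shares were 28.6% (26.9 to 30.3) and 45.1% (43.5 to 46.7). The share expected from independent genes was not computed, so these counts are not read as joint expression. None of the 10 was found in 79.8% of naïve, 53.7 and 47.2% of ta-non-activated and 5.49 and 1.45% of ta-activated cells. The fresh cells with a UMI mostly had 1 of the 10 genes, and the cultured cells mostly had 2 or more. Without CD3 cells, 0 of 648 fresh week 3 cells had 4 or more (upper 95% limit 0.568%) and 68.8% had none.

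**Figure D4:**
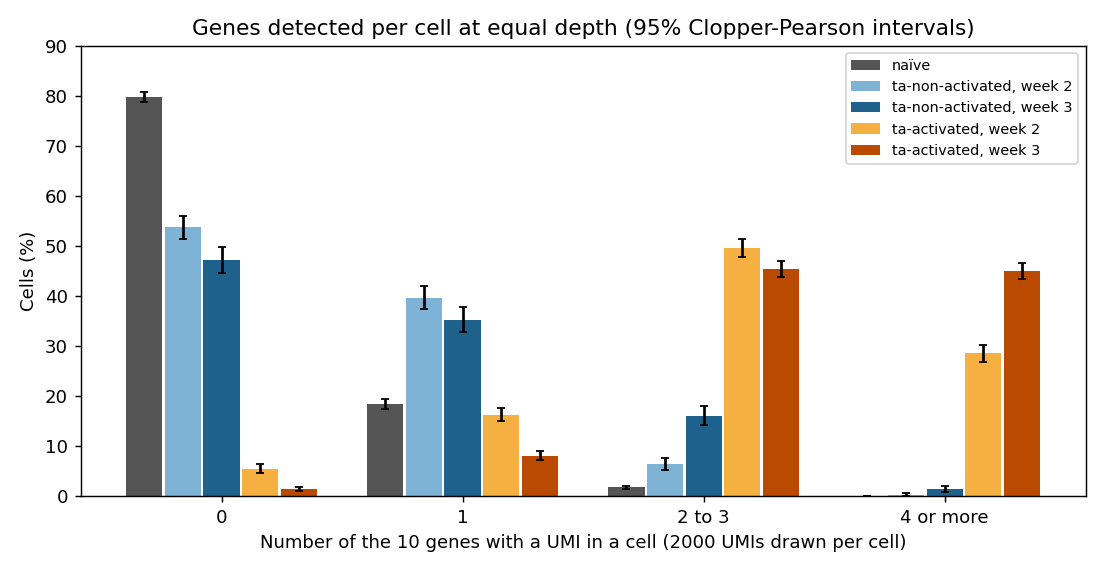
Share of cells (%) with 0, 1, 2 to 3 or at least 4 of the 10 genes detected after 2000 UMIs were drawn per cell, by library, with 95% Clopper-Pearson intervals. In the group with 4 or more, the ta-activated bars stand at 28.6 and 45.1% and the 3 fresh bars at or below 1.40%.

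UMIs of *Isg15* were unevenly spread over cells. In the thinned cells of the ta-activated libraries its variance was 5.86 times its mean in week 2 and 3.96 times in week 3. A random draw gives about 1. For the same relative spread between cells this ratio rises with the mean, so genes of different levels cannot be ranked by it. *Bst2* had means of 2.42 and 2.62 and ratios of 1.753 and 1.496. The ratios were 1.05 to 1.11 for *Xaf1* (means 0.438 and 0.456) and 1.04 to 1.11 for *Ube2l6* (0.107 and 0.0937). At such low means a ratio near 1 does not show an even spread. *Rsad2*, with means of 0.101 and 0.408, had ratios of 1.53 and 2.87. A single cell held up to 62 *Isg15* UMIs of 2000 in week 2 and up to 37 in week 3, beside means of 2.38 and 3.87.

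The cells were then grouped by their UMIs of 29 other interferon-induced genes (such as *Ifit1*, *Zbp1* and *Irf7*, and none of the 10). Of ta-activated cells, 67.6% in week 2 and 78.8% in week 3 had at least 6 such UMIs, against 0.569% of naïve and 7.74 and 1.27% of ta-non-activated cells. In the week 2 ta-activated library, the 10 genes together had 986 CPM in the 71 cells with no such UMI and 3987 CPM in the 1907 cells with 6 or more. In week 3 the values were 1618 CPM in 17 cells and 4925 CPM in 2927 cells. For the 10 genes together, the same order held in fresh cells, from 105 to 671 CPM in naïve, 286 to 961 CPM in the ta-non-activated cells of week 2 and 415 to 3763 CPM in those of week 3. The last of these rests on 19 cells, and without CD3 cells the range in week 3 was 172 to 667 CPM, on 3 cells with 6 or more such UMIs. Single genes differed in fresh cells. Between naïve cells with 6 or more and with 2 or fewer such UMIs, the ratio was 16.5 (7.32 to 32.8) for *Isg15* and 1.53 (0.184 to 5.59) for *Uba7*. *Ube2l6* had 0 UMIs in the 35 naïve cells with 6 or more.

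Cells with 6 or more such UMIs were compared with those of 2 or fewer in the ta-activated libraries. *Isg15* was 5.94-fold (5.16 to 6.87) higher in week 2 and 4.03-fold (3.55 to 4.59) in week 3. *Rsad2* had the steepest ratios, 10.9 (4.62 to 33.9) and 13.5 (6.85 to 31.4). *Bst2* had ratios of 2.43 (2.21 to 2.68) and 1.51 (1.37 to 1.67), and *Xaf1* of 2.64 (2.09 to 3.37) and 1.99 (1.52 to 2.65). *Ube2l6* had ratios of 3.55 (2.12 to 6.44) and 3.33 (1.60 to 8.34). All 10 genes were higher in the cells rich in these UMIs in both libraries, with intervals above 1. The share of all genes with such intervals is not given here, and *Gata3* had them too. For scale, *Gata3* had ratios of 1.49 (1.33 to 1.67) and 1.39 (1.24 to 1.56) and *Mki67* of 0.583 (0.473 to 0.724) and 0.575 (0.455 to 0.735).

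Cultured cells in which no such UMI was drawn had more *Bst2* than fresh cells in which none was drawn. A draw of 2000 UMIs can miss transcripts that a cell holds, so these cells were not matched in the 29 genes. In the ta-activated libraries, 388 and 217 cells had 2 or fewer such UMIs after the draw, and 43 and 39 without it. With no UMI of the 29 genes, *Bst2* was at 577 (459 to 717) and 853 (571 to 1225) CPM in the ta-activated and 253 (225 to 283) and 247 (222 to 275) CPM in the ta-non-activated libraries. *Isg15* in such cells was at 282 (201 to 384) and 529 (314 to 837) CPM against 10.3 (5.31 to 17.9) and 105 (88.2 to 123) CPM. The week 3 ta-non-activated values of both genes include the CD3 cells of that library. Without CD3 cells, all 10 genes together were at 172 (141 to 208) CPM in its 311 cells with no such UMI.

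**Figure D5:**
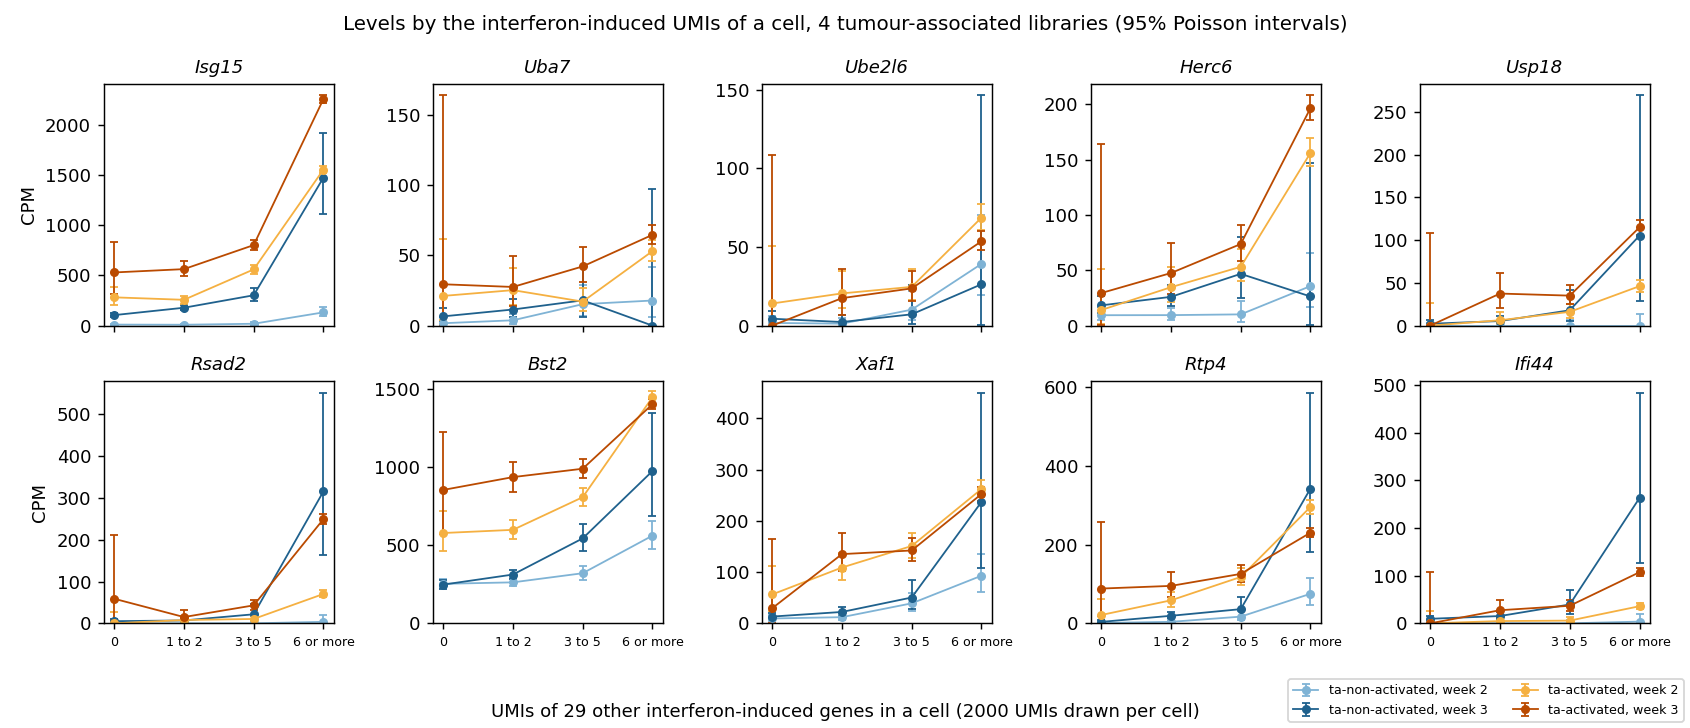
Levels of each gene (CPM, linear axes that differ between panels) in cells grouped by the UMIs of 29 other interferon-induced genes, for the 4 tumour-associated libraries, at 2000 UMIs per cell with 95% Poisson intervals. In both ta-activated libraries each gene is highest in the cells with 6 or more such UMIs, and intervals are wide where few cells fill a group.

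Correlations between the 10 genes across thinned cells were weak. All 45 gene pairs were positive in both ta-activated libraries, with medians of Pearson's r of 0.08 and 0.07 over 2822 and 3714 cells. The highest was *Isg15* with *Rsad2* in week 3, at 0.34. In naïve cells 21 of 45 were positive, with a median near 0. In the ta-non-activated libraries 23 of 36 and 34 of 45 were positive, with medians of 0.03 and 0.08, and the 10 effector pairs of week 3 had a median of 0.16. Without CD3 cells 10 of 45 were positive in that library, with a median of -0.01. There *Usp18*, *Ifi44*, *Rsad2* and *Rtp4* had a UMI in 1, 2, 3 and 4 of 648 cells. Genes never found in the same cell have a negative r, so the signs carry little where genes are sparse. Cells of a library share its depth and its preparation, and the values are descriptive. The share of positive pairs among other genes is not given here, so these counts of pairs are not read as a trait of the set. Among 6664 other genes detected in at least 2% of cells of both ta-activated libraries, those most like the summed 10 were *Ifit1*, *Ifit3*, *Iigp1*, *Isg20*, *Samhd1*, *Ifi203*, *Trim30c*, *Igtp*, *Ifi209* and *Ly6a*. The lower of their correlations in the 2 libraries ran from 0.50 for *Ifit1* to 0.28 for *Ly6a*, where the median gene had -0.01.

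Other genes around the pathway were counted from lists. Of 29 other interferon-induced genes, 29 were higher after culture in both weeks and 22 more than 4-fold, against 38.7% and 4.41% of the 12073 genes. Of 11 ubiquitin genes that correspond to the chain, 3 were higher in both weeks (background 38.7%) and none more than 4-fold (4.41%). *Rps27a* and *Ubb*, which encode ubiquitin, were at 5966 and 2031 CPM in fresh and 4382 and 2797 CPM in cultured cells of week 2, and at 6166 and 3438 against 4202 and 3079 CPM in week 3. *Ube2l3*, the ubiquitin relative of *Ube2l6*, had 341 and 210.0 CPM in fresh and 331 and 292 CPM in cultured cells.

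Of 9 further genes of the ISG15 pathway in the matrices, 8 had enough UMIs, 4 of these were higher in both weeks (background 38.7%) and 1 was more than 4-fold higher (4.41%). That gene was *Stat2*, which encodes a transcription factor of type I interferon signalling. It was at 14.4 CPM in naïve, 7.64 and 11.7 CPM in ta-non-activated and 76.7 and 105 CPM in ta-activated cells. *Trim25*, a further ISG15 ligase, had 14.8 CPM, then 15.6 and 21.7 CPM, then 38.4 and 80.7 CPM. *Cmpk2*, the neighbour of *Rsad2* that makes its substrate, had 2.47 CPM, then 0.361 and 2.98 CPM, then 24.4 and 53.9 CPM. *Cmpk2* was the 1 gene of 5 measured effector partners that was over 4-fold higher in both weeks (background 4.41%).

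The type I interferon transcripts that were looked up were absent or near absent, and other *Ifna* genes were not looked up. *Ifnb1*, *Ifna1*, *Ifna2* and *Ifna4* had no UMI in any library, *Ifne* and *Ifnk* had at most 3, and of 9 interferon genes *Ifng* alone reached 20 UMIs in each week. *Ifng* was at 7.87 CPM in naïve, 3.61 and 21.9 CPM in ta-non-activated and 9.43 and 0 CPM in ta-activated cells, so it did not follow the order of the 10 genes. In the week 3 ta-activated library, 0 of 61830293 UMIs allows a level of up to 0.0485 CPM. The type I receptor genes *Ifnar1* and *Ifnar2* were at 16.5 and 23.9 CPM in fresh and 26.3 and 41.2 CPM in cultured cells of week 2. In week 3 they were at 40.9 and 50.2 CPM in fresh and 36.1 and 43.7 CPM in cultured cells. The fresh week 3 values of *Ifng* and of these receptor genes include the CD3 cells of that library.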

How the data were processed

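Matrices hold raw UMI counts, as the authors deposited them, and their headers name Cell Ranger 6.0.0 (naïve) or 3.0.2 (the rest). The build was, per the submitters' notes, GRCm38. The annotation used for counting is not given in the sources used here. Positions came from GENCODE M21 on GRCm38, which held 27639 of the 27726 gene identifiers. Members and lists were chosen with earlier results of these data known. Named genes were the 10 members, the 10 genes most like them, and from each list at most the 4 with most UMIs or those a result turned on. Levels have exact Poisson and shares Clopper-Pearson 95% intervals for counting error only. No doublet caller was run. Counts summed per library were tested with edgeR 4.0.16 (filterByExpr, TMM, quasi-likelihood, Benjamini-Hochberg) in R 4.3.3, with DESeq2 1.42.0 as an alternative, and the script was tested on simulated data. Python 3.11.15, numpy 2.4.6, scipy 1.17.1 and pandas 2.3.3 were used otherwise, and matplotlib 3.10.9 for figures. Further alternatives were other cell filters, CD3 cells left out, the 5% deepest barcodes left out, means over cells, TMM sizes, other thinning and each library left out. 1 gene is not reported here. Genes per cell, interferon classes, correlations and the gap between fresh weeks without CD3 cells were added after the data had been seen.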

Additional observations from a re-analysis of the deposited data

Results flagged for a closer look

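Of the 10 genes, 3 moved in opposite directions from naïve to ta-non-activated cells in the 2 weeks, with counting intervals that excluded no difference on both sides. This difference was not tested, since each group is 1 library per week. The share of all genes that meet the same rule is not given here, so the count is not read as a trait of the set. The log2 ratio of ta-non-activated over naïve was -2.40 in week 2 and 0.90 in week 3 for *Usp18*, -3.41 and 3.34 for *Rsad2*, and -3.12 and 5.002 for *Ifi44*. The week 2 library held 19, 3 and 2 UMIs of these genes. In the week 3 library 53.1% of cells were CD3 cells. Without CD3 cells the week 3 log2 ratios were -0.55 (-2.20 to 0.73), 1.07 (-0.92 to 2.61) and 2.07 (0.26 to 3.60), on 5, 4 and 5 UMIs.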

How the results depend on the processing

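All 20 ratios of cultured to fresh stayed above 1 with all deposited barcodes, a mitochondrial limit of 10%, no CD3 cells, no cells among the 5% deepest, means over cells and TMM sizes, and from 1 to 8 of the 20 left their counting intervals under each. In cells with no UMI of the other interferon-induced genes, 6 of 10 genes were higher in both weeks, and the other 4 had 0 UMIs in at least 1 of the ta-activated libraries (71 and 17 such cells). There the fresh over naïve log2 ratio of *Usp18* in week 3 was -0.28, on 3 fresh and 16 naïve UMIs, against 0.90 with all cells. That of *Rtp4* in week 2 was -0.64, on 1 fresh and 8 naïve UMIs, against 0.68 with all cells. Without CD3 cells the *Usp18* log2 ratio in week 3 was -0.55. Without them the ratio of the fresh libraries, week 3 over week 2, was 0.417 (0.369 to 0.469) for *Bst2*, against 1.18 with all cells. Without thinning, the *Ube2l6* log2 ratio between week 3 ta-activated cells with 6 or more and with 2 or fewer such UMIs was -0.63, on 3 UMIs in the latter. Of 44 ratios of this kind over the 5 libraries, this 1 changed sign and 21 more left their counting intervals. Some ta-activated intervals then included 1, such as that of *Herc6* in week 3 (1.19-fold, 0.545 to 3.23). DESeq2 placed 1037 genes past the threshold. Leaving out 1 library gave from 0 to 1646 genes, with 1646 without ta-non-activated week 2, 513 without ta-non-activated week 3 and 0 without either ta-activated library; the lone library is then assumed to vary like the other group, and the cause was not tested. The edgeR count was 0 under all other alternatives, with 1505 genes at an unadjusted p under 0.05 under the replicate block for the week. The replicate numbers share only the week. Over 12643 genes, the week 2 deviations from the group mean had a correlation of -0.06 between the ta-non-activated and ta-activated groups. Weeks are 1 library each, so no count here measures the spread between mice.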
